A study of Mus musculus with 16 samples.

Results

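Transcripts of the antioxidant response controlled by NRF2 were followed in mouse liver through 10 genes, out of 19096 genes that the array named. These were the transcription factor gene Nfe2l2, which encodes NRF2, its repressor gene Keap1, and the target genes Nqo1, Srxn1, Txnrd1, Gclc, Gclm, Gsr, Slc7a11 and Ugdh. They were chosen by name, all of their 17 probes were taken, and 14 probes of 9 genes were bright enough to be tested. The remaining gene, Slc7a11, is given below by its signals alone.

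Liver RNA of 16 male mice was hybridised to 16 Agilent 1-colour arrays, 1 mouse per array. One genotype was wild type (WT), and the other had a germline null mutation of the stress-inducible gene Gadd45b (KO). All 16 mice, controls included, were injected at 5 weeks of age with 90 mg/kg of N-diethylnitrosamine (DEN), which initiates liver tumours. Groups of 4 mice of each genotype then drank plain water (WT DEN, KO DEN) or, from the age of 7 weeks, water that held 0.5 g/l of phenobarbital (WT DEN + PB, KO DEN + PB), abbreviated PB. Livers were taken at 57 weeks, from regions without tumours. There was no group without DEN, so DEN itself was not compared with anything. The WT mice were C57BL/6J and the KO line was obtained as a B6;129S6 stock, so an effect of the null allele and one of strain background cannot be told apart in comparisons between genotypes.

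NRF2 is held in the cytoplasm by KEAP1, which directs it to degradation. Electrophiles and oxidants modify KEAP1, NRF2 then accumulates, pairs with a small MAF protein in the nucleus and binds antioxidant response elements near its target genes. The targets supply glutathione and thioredoxin, reduce quinones and oxidised peroxiredoxins, and feed conjugation reactions. PB acts in liver mainly through the nuclear receptor CAR, which induces drug metabolism genes, some of which NRF2 also regulates. Since NRF2 is controlled mostly through its protein, the mRNA levels of Nfe2l2 and Keap1 do not measure its activity.

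The core of the antioxidant response element is TGACNNNGC. The promoter windows of RefSeq (build GRCm38.p6), each 300 bases long and running from 250 bases before to 50 bases after an annotated start, were searched for it on both strands. A window was listed for 8 of the 10 genes, all but Gclc and Gsr. Of their 10 windows, 5 held the core, 1 each for Nfe2l2, Srxn1, Gclm, Ugdh and Txnrd1, against 12.4% of the 32851 windows of all genes. The stretches around these matches are shown with the core or its reverse complement in capitals.
Nfe2l2, chr2:75704885-75704913, minus strand, match starting at -240: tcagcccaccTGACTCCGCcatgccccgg
Srxn1, chr2:152105542-152105570, plus strand, reverse complement starting at 29 after the start: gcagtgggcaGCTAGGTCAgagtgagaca
Gclm, chr3:122245413-122245441, plus strand, reverse complement starting at -134: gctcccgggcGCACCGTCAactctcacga
Ugdh, chr5:65435918-65435984, minus strand, core at -132 and reverse complement at -94: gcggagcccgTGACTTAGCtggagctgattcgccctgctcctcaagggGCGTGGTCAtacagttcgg
Txnrd1, chr10:82859104-82859132, plus strand, reverse complement starting at -92 in 1 of its 3 windows: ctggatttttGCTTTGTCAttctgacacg
The windows of Nqo1, Keap1 and Slc7a11 held no such letters. Sequence outside the windows was not searched, and binding was not measured.

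All levels below are log2 signals of a probe minus the 75th percentile of its array, so a difference of 1 is a 2-fold difference in signal. Levels are compared between groups for the same probe only. A gene was called where the limma adjusted p was under 0.05 and the change at least 1.5-fold. Where a gene had several probes, the brightest stands for it. Where groups are said to separate or not to overlap, how many of all named genes did so was not counted. As a check of the labels, Gadd45b signal stood well above background in 8 of 8 WT and in 0 of 8 KO livers. Cyp2b10, the main PB-inducible cytochrome of mouse liver, was higher under PB by 6.69 ± 0.62 (SE) in WT and by 6.80 ± 0.62 in KO on the log2 scale. The hepatocyte markers Alb, Ttr, Apoa1, Tat, Cps1, Hnf4a and Cyp2e1 were well above background on all arrays. In such whole-tissue RNA, fewer cells of a type and less RNA per cell cannot be told apart.

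Read by the brightest probe of each gene, PB raised Nqo1 in both genotypes and Srxn1 in WT, and these were the members that passed the test. In KO the brightest Srxn1 probe did not pass (limma adjusted p = 0.0679), while the other Srxn1 probes did (limma adjusted p = 0.0238 and 0.00829). In WT livers 2 of the 9 tested members were called higher, against 0.654% of all named genes called higher, and 0 were called lower, against 0.0827%. In KO livers 1 of the 9, Nqo1, was called higher, against 1.26%, and 0 lower, against 0.872%. The median difference over the 9 members was 0.27 in WT and 0.15 in KO, beside -0.02 and 0.01 over the 13304 named genes tested. The members were chosen with earlier results of these data known, so these shares describe them and test nothing.

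**Figure D1:**
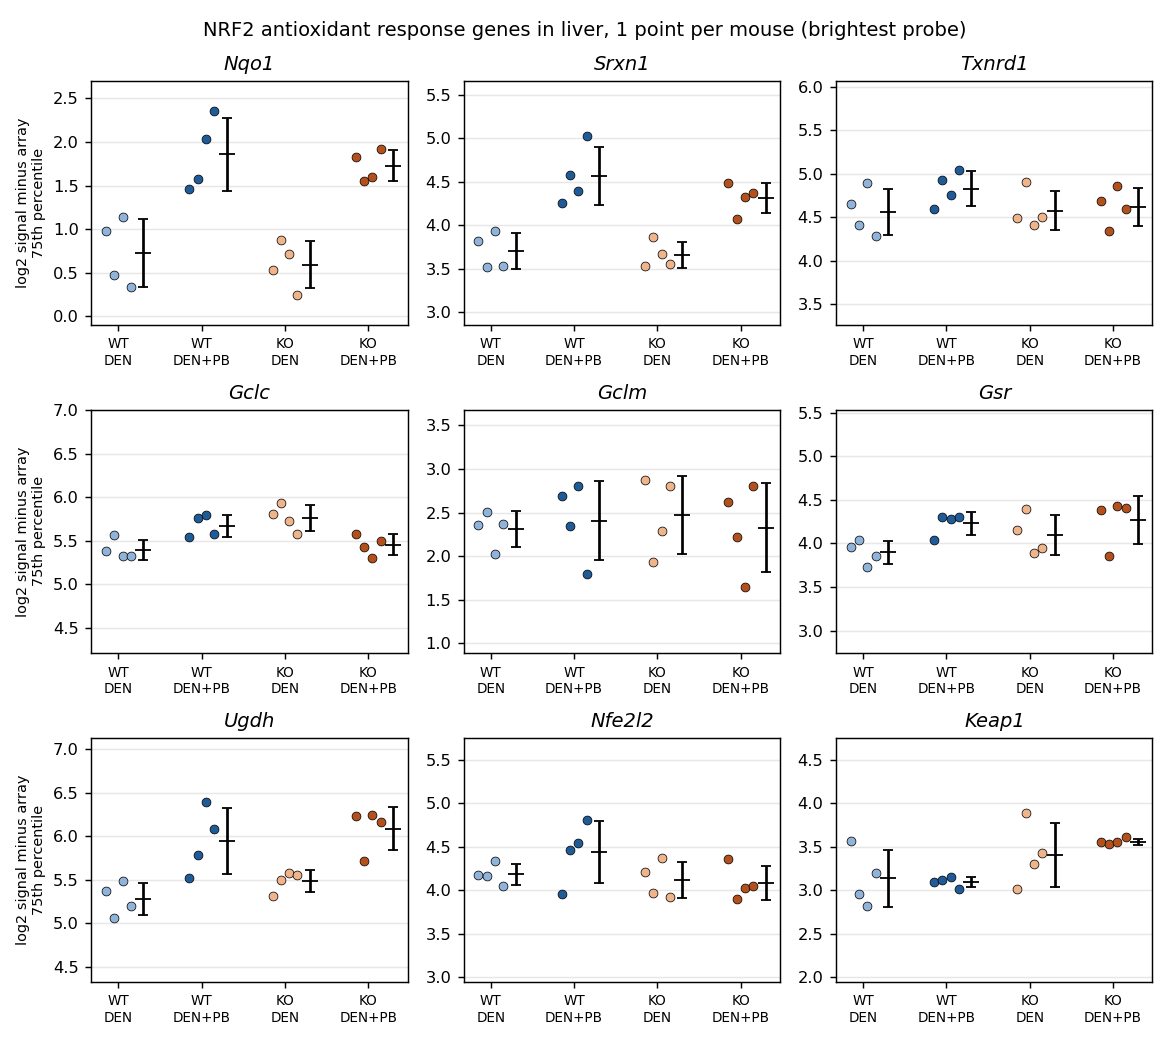
Each point is 1 mouse, plotted as the log2 signal of the gene's brightest probe minus the array's 75th percentile on a vertical axis that spans the same range in every panel. The bar gives the mean and SD of the 4 mice. Nqo1, Srxn1 and Ugdh are higher in every PB-treated mouse than in every mouse of the same genotype given DEN alone. Ugdh was not called, and how many of all named genes separate in this way was not counted. The Gclc means differ with opposite signs in WT and KO, by amounts that did not pass the test.

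Nqo1 encodes NAD(P)H quinone dehydrogenase 1, which reduces quinones by 2 electrons and is the usual readout of NRF2 activity. Its levels were 0.98, 0.47, 1.14 and 0.33 in WT DEN and 1.46, 1.58, 2.03 and 2.36 in WT DEN + PB. In KO DEN they were 0.53, 0.87, 0.71 and 0.24, and in KO DEN + PB 1.83, 1.55, 1.60 and 1.92. The 8 PB-treated livers all lay above the 8 livers given DEN alone, and the PB-treated WT livers were the more spread out. The log2 difference was 1.13 ± 0.22 (SE; limma adjusted p = 0.0233) in WT and 1.14 ± 0.22 (limma adjusted p = 0.0134) in KO, a 2.19-fold and a 2.20-fold rise. The PB effect in WT minus that in KO was -0.01, with a 95% interval from -0.68 to 0.66. The means ranked WT DEN + PB (1.86), KO DEN + PB (1.73), WT DEN (0.73) and KO DEN (0.59), and the neighbours in this order within a treatment differed by less than the spread between mice.

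Srxn1 encodes sulfiredoxin, which returns overoxidised peroxiredoxins to their active form. The brightest of its 3 probes read 3.82, 3.52, 3.93 and 3.53 in WT DEN and 4.26, 4.58, 4.39 and 5.02 in WT DEN + PB. It read 3.53, 3.87, 3.67 and 3.56 in KO DEN and 4.48, 4.07, 4.33 and 4.37 in KO DEN + PB. Again the groups with and without PB did not overlap in either genotype. The difference was 0.86 ± 0.17 in WT (limma adjusted p = 0.025) and 0.66 ± 0.17 in KO, where it did not pass (limma adjusted p = 0.0679). The other probes, A_51_P330125 and A_52_P593200, passed in both genotypes. They gave 1.01 (limma adjusted p = 0.00795) and 1.26 (limma adjusted p = 0.000559) in WT. In KO they gave 0.81 (limma adjusted p = 0.0238) and 0.90 (limma adjusted p = 0.00829). The KO call of Srxn1 therefore rested on which probe was read, while its direction did not. For the difference between the genotypes, the brightest probe gave 0.20, with a 95% interval from -0.31 to 0.72.

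The calls for Nqo1 and for the brightest Srxn1 probe were close to the threshold in WT. All Srxn1 values in this paragraph are those of that probe. The other Srxn1 probes lay further from the threshold in WT, with limma adjusted p of 0.00795 and 0.000559. The Nqo1 call in WT was lost without WT DEN replicate 2 (1.04), WT DEN replicate 4 (1.00), WT DEN + PB replicate 3 (1.07) or WT DEN + PB replicate 4 (0.96), and in KO without KO DEN replicate 4 (1.02). The Srxn1 call in WT was lost without WT DEN replicate 1 (0.90), 2 (0.80) or 4 (0.80), or WT DEN + PB replicate 2 (0.85) or 4 (0.71). The Srxn1 value in KO passed without WT DEN + PB replicate 4 (0.66), an array that is in neither group of that comparison. The arrays lay on 4 slides, and for each genotype 3 of them held both treatments. Within these the Nqo1 difference ran from 0.32 to 1.96 in WT and from 1.02 to 1.13 in KO, and the Srxn1 difference from 0.33 to 1.49 in WT and from 0.50 to 0.72 in KO. With slide as a block, the differences in WT were 1.14 ± 0.25 for Nqo1 (limma adjusted p = 0.0882) and 0.90 ± 0.19 for Srxn1 (limma adjusted p = 0.0609), which were not called.

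Txnrd1 encodes the cytosolic thioredoxin reductase, which keeps thioredoxin reduced with electrons from NADPH. It read 4.65, 4.41, 4.89 and 4.29 in WT DEN and 4.59, 4.93, 4.76 and 5.04 in WT DEN + PB. In KO the levels were 4.49, 4.91, 4.41 and 4.50 with DEN alone and 4.69, 4.34, 4.86 and 4.60 with PB. The groups overlapped in both genotypes, and the PB difference was 0.27 ± 0.17 in WT and 0.05 ± 0.17 in KO, neither of which passed. The upper 95% bounds of 0.63 and 0.41 lay below the differences measured for Nqo1.

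The limiting step of glutathione synthesis is carried out by glutamate-cysteine ligase, of which Gclc encodes the catalytic and Gclm the modifier subunit. Gclc read 5.38, 5.56, 5.32 and 5.32 in WT DEN and 5.54, 5.76, 5.79 and 5.57 in WT DEN + PB. It read 5.81, 5.93, 5.73 and 5.57 in KO DEN and 5.58, 5.43, 5.30 and 5.50 in KO DEN + PB, so that the means differed the other way there, with the groups overlapping in both genotypes. The PB difference was 0.27 ± 0.13 in WT and -0.31 ± 0.13 in KO, and neither passed (limma adjusted p = 0.702 and 0.331). The difference between these effects was 0.58 ± 0.18, the only one among the members with an unadjusted limma p under 0.05 (0.00615), and its limma adjusted p over all probes was 0.494. Within slides the PB difference was 0.13 to 0.38 in WT (slides 1, 2 and 3) and -0.43 to -0.35 in KO (slides 1, 3 and 4). Each of these values sets 1 PB mouse against 1 or 2 DEN mice. They come from the same arrays as the fit, so they are no separate test of the opposite signs. Under DEN alone Gclc lay higher in every KO than in every WT liver, by 0.36 ± 0.13 (limma adjusted p = 0.127). The groups nearly touched, with a highest WT reading of 5.56 and a lowest KO reading of 5.57. Gclc was the member that varied least within groups, with a pooled SD of 0.13.

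Gclm was the member that varied most, with a pooled within-group SD of 0.42. It read 2.36, 2.51, 2.02 and 2.37 in WT DEN and 2.69, 2.35, 2.80 and 1.79 in WT DEN + PB. In KO DEN it read 2.87, 1.93, 2.29 and 2.80, and in KO DEN + PB 2.62, 2.22, 1.65 and 2.81. The 4 groups overlapped throughout. The PB difference was 0.09 ± 0.28 in WT and -0.15 ± 0.28 in KO, with 95% intervals from -0.49 to 0.68 and from -0.73 to 0.44.

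Gsr encodes glutathione reductase, which regenerates glutathione from its oxidised form. Its brightest probe read 3.96, 4.04, 3.73 and 3.86 in WT DEN, and 4.04, 4.30, 4.28 and 4.30 in WT DEN + PB. It read 4.16, 4.40, 3.89 and 3.95 in KO DEN, and 4.39, 3.86, 4.43 and 4.41 in KO DEN + PB. WT DEN + PB replicate 1 and KO DEN + PB replicate 2 lay below the close cluster of the other PB-treated mice of their group. The PB difference was 0.33 ± 0.16 in WT and 0.17 ± 0.16 in KO, and neither passed (limma adjusted p = 0.708 and 0.785). The other probes of Gsr gave 0.21 and 0.29 in WT and 0.29 and 0.18 in KO, and none of these passed. One of them, A_52_P346738, followed the brightest probe only in part (r = 0.54 over the 16 arrays), while the other followed it closely (r = 0.92).

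Slc7a11 encodes the cystine importer xCT, which brings in the cysteine for glutathione. Its 3 probes were well above background on 0, 1 and 0 of the 16 arrays, so the gene was not tested and no fold change is given. The single array was WT DEN replicate 2, where probe A_52_P368057 read -2.79 and the other probes -7.64 and -7.79. The remaining 15 readings of A_52_P368057 were not well above background and ran from -8.13 to -5.25.

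Ugdh encodes UDP-glucose dehydrogenase, which makes the UDP-glucuronic acid used in glucuronidation. It read 5.37, 5.06, 5.49 and 5.20 in WT DEN and 5.52, 5.78, 6.40 and 6.09 in WT DEN + PB. In KO DEN it read 5.31, 5.50, 5.58 and 5.56, and in KO DEN + PB 6.23, 5.72, 6.24 and 6.17. Every PB-treated liver lay above every DEN liver of its genotype. The PB difference was 0.67 ± 0.19 in WT (limma adjusted p = 0.177) and 0.60 ± 0.19 in KO (limma adjusted p = 0.135), and neither was called. The exact permutation test of 4 against 4 arrays gave 0.0286 in both genotypes, as it did for Nqo1 and Srxn1. This is the smallest p it allows, and any groups that do not overlap give it, so it only restates that separation. The same p was found for other changes that were not called. Among them were Gclc between genotypes under DEN, Keap1 between genotypes under DEN + PB, and Gsr probe A_52_P346738 under PB in KO. With quantile normalization the PB difference of Ugdh in WT passed (0.78, limma adjusted p = 0.0285). It was not called in the other 26 of the 27 alternatives, and that in KO was not called in any of the 27.

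**Figure D2:**
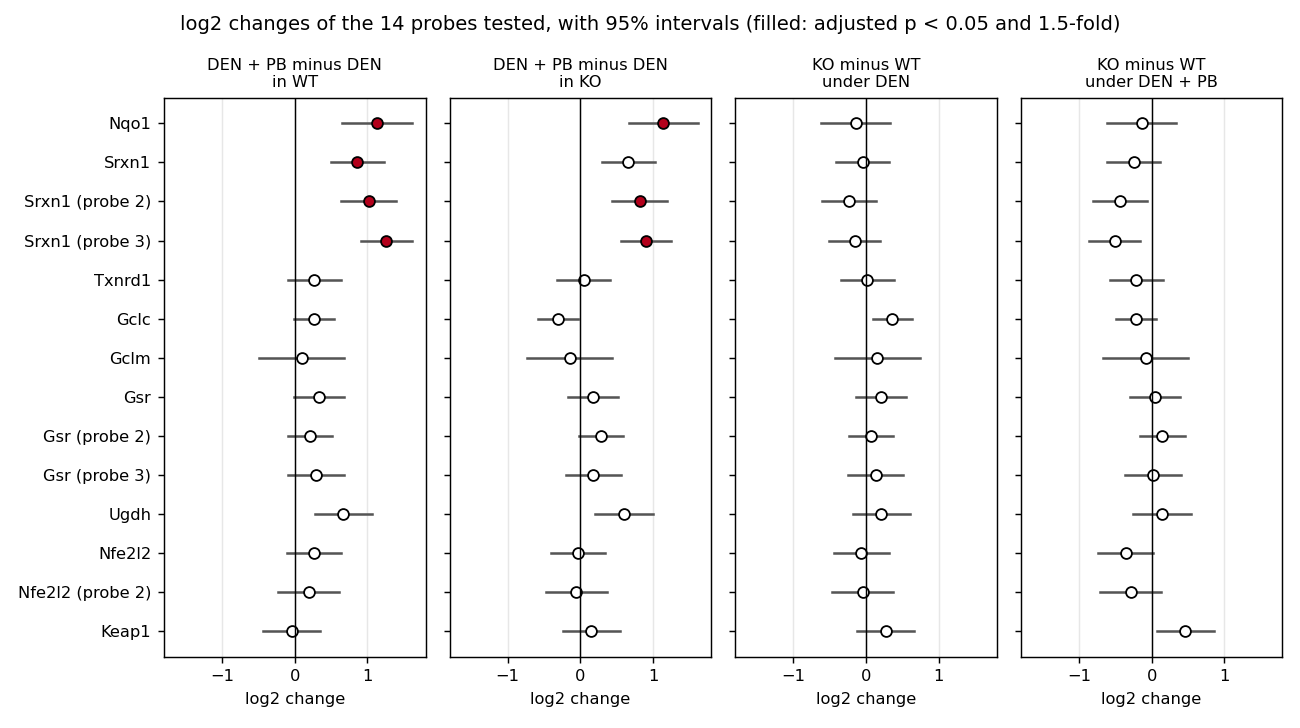
Each row is 1 of the 14 probes tested, and the 4 panels give its log2 change with a 95% interval: the PB difference in WT, the same in KO, then KO against WT without and with PB. Filled points were called. The filled points are Nqo1 in both PB panels, all 3 Srxn1 probes in WT and 2 of them in KO, and no point is filled in the genotype panels.

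Neither regulator was called in any comparison. Nfe2l2 read 4.18, 4.16, 4.34 and 4.05 in WT DEN, and 3.96, 4.46, 4.54 and 4.81 in WT DEN + PB. It read 4.21, 3.97, 4.37 and 3.92 in KO DEN, and 4.36, 3.90, 4.03 and 4.05 in KO DEN + PB. The PB difference was 0.26 ± 0.18 in WT and -0.03 ± 0.18 in KO, and its second probe gave 0.19 and -0.06, none of them called. Keap1 read 3.57, 2.96, 2.82 and 3.20 in WT DEN, and 3.09, 3.12, 3.15 and 3.02 in WT DEN + PB. It read 3.01, 3.89, 3.30 and 3.43 in KO DEN, and 3.55, 3.53, 3.55 and 3.61 in KO DEN + PB. Both groups given PB were narrow for Keap1, with SDs of 0.06 and 0.03, against 0.33 and 0.37 under DEN alone. The PB difference of Keap1 was -0.04 ± 0.18 in WT and 0.15 ± 0.18 in KO.

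Between the genotypes no member was called. Under DEN alone 0 of 9 were called in either direction by limma, against 1.02% of all named genes called higher and 1.74% called lower in KO, and 1 member, Gclc, had an unadjusted p under 0.05, as had 2419 of the 13304 named genes. Under DEN + PB 0 of 9 were called, against 1.76% higher and 5.85% lower, and again 1 of 9 members had an unadjusted p under 0.05, as had 3109 of the 13304 named genes. Neither share of members was above that of all genes. The member was Keap1, which read higher in every KO than in every WT liver, by 0.46 ± 0.18 (limma adjusted p = 0.14). Nfe2l2 differed by -0.36 ± 0.18 in the same comparison (limma adjusted p = 0.241) with overlapping groups. The third Srxn1 probe, A_52_P593200, read lower in every KO liver, by -0.51 ± 0.17 (limma adjusted p = 0.0757), while the brightest Srxn1 probe gave -0.25 ± 0.17 with overlapping groups. For the difference of the PB effects between the genotypes, limma called 0 of 9 members and 0% of all named genes. At an unadjusted p under 0.05 it held 1 member, Gclc, and 881 named genes.

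Markers of other liver cell types differed between the genotypes beside these values. The summed linear level of 8 leukocyte markers, of which 7 were well above background on all arrays, ran from 11.8 to 28.7 in WT DEN and from 13.6 to 19.4 in WT DEN + PB. It ran from 7.67 to 10.1 in KO DEN and from 5.77 to 7.46 in KO DEN + PB. The summed level of 5 endothelial markers was 36.4 to 46.0 in WT DEN, 34.4 to 38.9 in WT DEN + PB, 18.3 to 31.0 in KO DEN and 17.9 to 21.7 in KO DEN + PB. The summed hepatocyte markers ran from 1044 to 1422 in WT DEN and from 1169 to 1275 in KO DEN. With PB they ran from 937 to 1169 in WT and from 1139 to 1472 in KO, so those ranges met only at their ends. Among the hepatocyte markers Tat was called higher in KO under DEN + PB, by 0.67 on the log2 scale (limma adjusted p = 0.0418). The 5 biliary markers, summed, ran from 11.9 to 31.7 in WT DEN and from 17.7 to 35.5 in WT DEN + PB. Of them 2, Krt19 and Krt7, were called higher under PB in WT, against 0.654% of all named genes. In KO the sum ran from 12.2 to 36.5 with DEN alone and was at most 15.4 with PB. Krt19, Krt7 and Epcam were called lower in KO under DEN + PB. The summed level of 6 stellate cell markers was 17.6 to 21.8 in WT DEN, 21.2 to 25.6 in WT DEN + PB, 15.2 to 18.9 in KO DEN and 11.0 to 17.5 in KO DEN + PB, and Lrat and Reln were called lower in KO under DEN + PB. Under DEN + PB limma called 6 of 8 leukocyte, 2 of 5 endothelial, 3 of 5 biliary and 2 of 6 stellate markers. All were lower in KO, where 5.85% of all named genes were called lower. Under DEN alone these counts were 2, 2, 0 and 0, also all lower, against 1.74%. The part of these cells in the values of the NRF2 genes was not tested.

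Part of the members varied together from mouse to mouse. After each group's mean was taken off, Srxn1 and Txnrd1 correlated with r = 0.82 over the 16 arrays, Nqo1 and Srxn1 with r = 0.82, Nfe2l2 and Nqo1 with r = 0.68, and Nqo1 and Txnrd1 with r = 0.67. Gclm stood apart, with r = -0.60 against Txnrd1 and -0.57 against Srxn1. The 36 pairs of members ran from -0.60 to 0.82 with a median of 0.23. These values describe 16 arrays that share slides and scaling and carry no test.

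The gene whose log2 levels were most like those of Nqo1 was Srxn1, with r = 0.95 over the 16 arrays, the highest among 13279 named genes. This measure includes the difference between treatments. The next were Sult2a7 (0.94), a sulfotransferase gene, BC016579 (0.93), which was well above background on 5 of 16 arrays, 4931406C07Rik (0.92) and Cbr3 (0.92). The lowest were Cyp2u1 (-0.88) and Gpr162 (-0.88). Of the other members Ugdh ranked highest after Srxn1, at place 63 with r = 0.85.

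**Figure D3:**
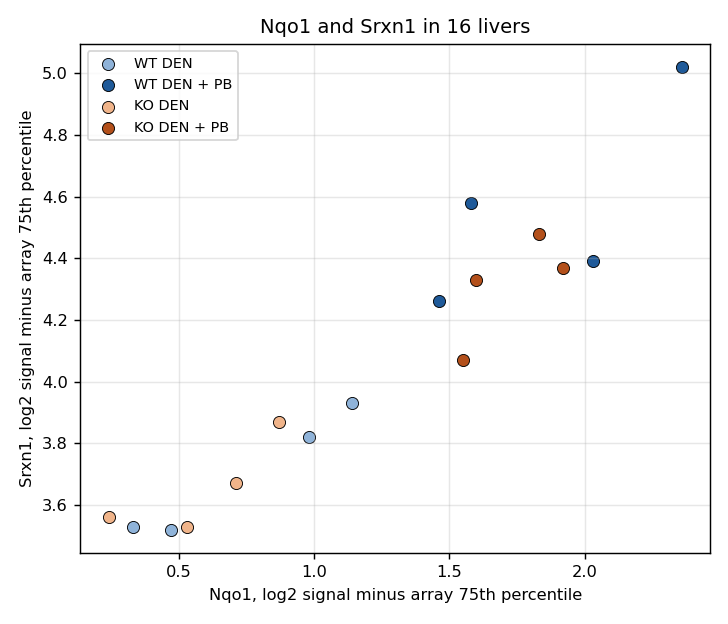
Each point is 1 liver, with the log2 level of Nqo1 on the horizontal and that of the brightest Srxn1 probe on the vertical axis, both relative to the array's 75th percentile, coloured by group. The 8 livers given PB lie at the upper right and the 8 given DEN alone at the lower left, with WT and KO mixed within each.

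The wider NRF2 pathway was read from 72 other genes in 6 lists, of which 69 matched a probe and 68 were tested. These lists were chosen with earlier results of these data known. They hold genes that the paper lists as changed by PB, such as Cbr3, Abcc4, Gsta4 and Htatip2. The counts below, set against all named genes, are therefore no test of the pathway. PB raised 8 of the 68 in WT, against 0.654% of all named genes, and 7 in KO, against 1.26%, and it lowered 0 in either, against 0.0827% and 0.872%. The 8 became 2 with slide as a block, 3 without WT DEN replicate 4 or WT DEN + PB replicate 3 or 4, 4 without WT DEN replicate 2 or 3, and 5 without WT DEN + PB replicate 2. The 7 became 4 without KO DEN replicate 4. The median difference over the 68 was 0.15 in WT and 0.20 in KO. The 8 genes called in WT were all among the 24 tested genes of iron, heme and conjugation, where the median was 0.47, and 0 of the 44 genes of the other lists were called. In KO 6 of these 24 were called and 1 of the 44, Maff. Glutathione enzymes (10 genes, medians 0.13 in WT and 0.16 in KO), thioredoxin, peroxiredoxin and superoxide genes (14 genes, 0.03 and 0.17) and NADPH suppliers (6 genes, 0.09 and 0.07) had 0 called by limma in either genotype. At an unadjusted p under 0.05 they held 1, 0 and 1 genes in WT and 1, 1 and 1 in KO, beside 1105 and 1765 of the 13304 named genes.

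Cbr3, a carbonyl reductase gene, had the largest difference. It read 1.25, 0.01, 0.67 and 0.06 in WT DEN and 3.86, 3.98, 4.08 and 6.10 in WT DEN + PB, a difference of 4.01 ± 0.41 (limma adjusted p = 4.3e-05). In KO the difference was 2.94 ± 0.41 (limma adjusted p = 0.000871). Abcc4, an efflux pump of organic anions, followed with 3.49 ± 0.26 in WT and 2.51 ± 0.26 in KO. The PB calls of both genes held in all 27 alternatives in both genotypes. Gsta2, a glutathione S-transferase, differed by 1.93 ± 0.38 in WT and 1.88 ± 0.38 in KO, and lost its call in 10 of the 27 alternatives in WT and 7 in KO, among them without WT DEN replicate 2, 3 or 4 or WT DEN + PB replicate 3 or 4 (1.71 to 2.00), and in KO without KO DEN replicate 4 (1.76) or KO DEN + PB replicate 3 (1.81). Its probe and that of Gsta1 stand for near-identical transcripts and may share signal. The other called genes were Gsta1, Gstm4 and Abcc3 in both genotypes (0.63 to 1.52), Gsta4 and Htatip2 in WT (0.94 and 0.78), and Maff in KO (1.39). CAR is also known to regulate several of these transporters and transferases.

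**Figure D4:**
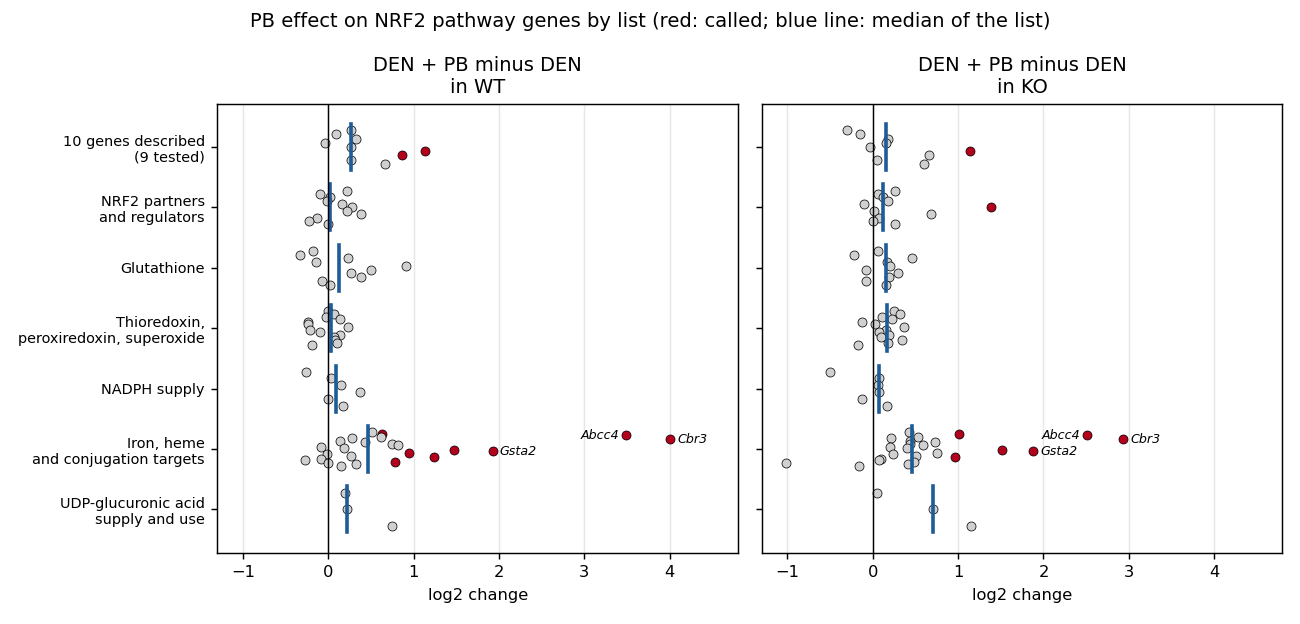
Log2 PB difference of each tested gene, WT on the left and KO on the right, grouped by list, with called genes in red and the list's median as a blue line. The called genes sit in the iron, heme and conjugation list, apart from the members in the top row and Maff in KO, and Cbr3 and Abcc4 have the largest differences.

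Under DEN 2 of the 68 other genes were called higher in KO and 2 lower, against 1.02% and 1.74% of all named genes. The total of 4 became 0 without WT DEN replicate 3, 1 without KO DEN replicate 1, 2 or 4, and 2 without WT DEN replicate 1 or KO DEN replicate 3. Slc35d1, a carrier of UDP-sugars into the endoplasmic reticulum, was higher in KO by 1.30 ± 0.29, and Glrx, glutaredoxin, by 0.80 ± 0.18. Maff, a small MAF partner of NRF2, differed by -1.35 ± 0.33, and Hmox1, heme oxygenase 1, by -0.92 ± 0.20 (limma adjusted p = 0.0219). Hmox1 read 2.38, 1.89, 2.61 and 1.89 in WT DEN and 1.13, 0.91, 1.29 and 1.75 in KO DEN. In the same comparison 2 of the 8 leukocyte markers were also called. These were the macrophage markers Cd68 and Adgre1, lower in KO by -1.35 and -1.94 on the log2 scale. The median over the 8 was -0.47, and the others were not called. Macrophages express Hmox1 highly. Their part in the Hmox1 difference was not tested. These calls were lost without single arrays: Slc35d1 without WT DEN replicate 3 (1.06), KO DEN replicate 2 (1.06) or KO DEN replicate 4 (1.30), and Glrx without WT DEN replicate 3 or 4 or KO DEN replicate 1, 3 or 4 (0.69 to 0.79). With slide as a block Glrx was also not called (0.72, limma adjusted p = 0.118). Hmox1 lost its call without WT DEN replicate 1 or 3 or KO DEN replicate 1 or 2 (-0.88 to -0.78). Maff lost its call without WT DEN replicate 1 or 3, any of the 4 KO DEN replicates or WT DEN + PB replicate 2 (-1.43 to -1.19).

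Under DEN + PB 2 of the 68 were called higher in KO and 2 lower, against 1.76% and 5.85% of all named genes, so the share called lower was not above that of all genes. The total of 4 became 1 without KO DEN + PB replicate 2, and 2 without WT DEN + PB replicate 3 or 4 or KO DEN + PB replicate 3 or 4. Slc35d1 (1.14 ± 0.29) and Glrx (1.02 ± 0.18) were again higher in KO. Cbr3 (-1.63 ± 0.41) and Abcc4 (-0.90 ± 0.26) were lower. The PB-treated KO livers read 3.15, 2.32, 2.74 and 3.28 for Cbr3, all below the PB-treated WT livers, and 2.75, 1.74, 2.06 and 2.37 for Abcc4, which overlapped with the range from 2.50 to 3.79 in WT. For the PB effect in WT minus that in KO, limma called 0 of the 68, and 2 of them, Abcc4 and Maff, had an unadjusted p under 0.05. This difference was 0.98 for Abcc4, with a 95% interval from 0.19 to 1.76 (limma adjusted p = 0.667), and 1.07 for Cbr3, with an interval from -0.16 to 2.31 (limma adjusted p = 0.9). For Maff it was -1.12, with an interval from -2.11 to -0.12 (limma adjusted p = 0.759). Abcc4 lost its genotype call in 19 of the 27 alternatives, 13 of which left out 1 array, with the lowest size without WT DEN + PB replicate 4 (-0.67). Cbr3 lost it in 6 of the 27 alternatives, among them without KO DEN + PB replicate 2 (-1.45) or 3 (-1.59). Its value ran from -1.85 to -1.10 when 1 array was left out. WT DEN + PB replicate 4 read 6.10 for Cbr3, and the other mice of its group 3.86 to 4.08. Slc35d1 lost its call without WT DEN + PB replicate 3 (0.92) or 4 (1.11) or KO DEN + PB replicate 2 (1.04) or 4 (1.15).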

How the data were processed

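The authors extracted Cy3 intensity values from the arrays with Agilent Feature Extraction 12.0.3.1, and the deposited processed signal is background-corrected and not scaled between arrays. A table of intensity values for the series, also deposited by the authors, held means of this signal, with 99.833% of values within 0.01%, and served as an alternative. Outlier spots (71 to 122 per array) were left out, repeat spots averaged, and log2 signals centred on each array's 75th percentile (137 to 294). The share of spots well above background was 58.3% to 67.7%, no spot was saturated, arrays of a group correlated with r of 0.974 to 0.992, and the number of arrays limits the precision. RefSeq accessions gave 1 symbol to 28223 of 41174 probes (68.55%) through a gene table of GRCm38.p6. The 24454 probes tested were those that every array of some group (4 of 4) measured well above background. The array was designed on mm9, so coordinates are given for the RefSeq promoter windows only.

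limma 3.58.1 (lmFit, eBayes) in R 4.3.3 fitted 4 group means over 16 arrays, with Benjamini-Hochberg adjustment over all probes tested. The fit was tested on simulated data. SE and 95% intervals come from this fit. Single genes also had a two-sided exact permutation test (70 assignments, smallest p 0.0286). The log2 contrasts were DEN + PB minus DEN in each genotype, their difference (WT minus KO), and KO minus WT under each treatment, and contrasts share groups. The study's thresholds, 1.5-fold and an adjusted p under 0.05, were kept.

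The text names all members, per contrast the called genes of the other NRF2 lists that rose most (3) and fell most (3), the 5 genes most and 2 least like Nqo1, Gadd45b and Cyp2b10. Other called genes and markers were named after their values were seen. The members and lists were chosen with earlier results of these data known. No pairing of mice by replicate number was visible. Between groups, same-numbered arrays correlated in their deviations with r of -0.213 to 0.355, and differently numbered arrays with r of -0.486 to 0.542. Alternatives covered background, scaling, filters, slide or replicate blocks, arrays in the fit, probe choice, moderation, the fold threshold and each array left out. The mean signal planned for normexp (offset 50) was not a column of the scanner files, so the median signal was used. A normexp setting without background outliers was added after seeing the data. Of 72 other NRF2 genes, Cbr1, Uxs1 and Ugt1a6a matched no probe and Ggt1 was not well above background.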

Additional observations from a re-analysis of the deposited data

Results flagged for a closer look

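Within groups of 4 mice, 3 of 56 sets of values (14 probes in 4 groups) had 1 mouse far from the rest, where chance gives about 1 in 20, or 2.8. For Gsr (probe A_51_P359625), WT DEN + PB replicate 1 was the lowest mouse of its group and its gap to the next made up 0.936 of the group's range. For the same probe, KO DEN + PB replicate 2 was the lowest, with a gap of 0.930 of the range. For Ugdh (probe A_51_P137953), KO DEN + PB replicate 2 was again the lowest, at 0.871 of the range.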

How the results depend on the processing

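Of 1584 values of single genes under 27 alternatives (59 results), 1410 kept their direction and their side of the threshold, 113 lost a call, 5 gained one and 56 changed sign. None of the 56 belonged to a result that was called. The cause of these changes was not tested. The 9 tested members were well above background on all 16 arrays, and only the dim probes of Slc7a11 were limited by signal.

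Except with the mean over a gene's probes, the counts of called genes read each gene, Srxn1 included, by its brightest probe. The 2 member genes called for PB in WT became 0 with normexp, with no filter, with slide as a block and with only the arrays compared, and 1 with the unscaled series table and without moderation. The 1 called in KO became 0 with normexp and with the unscaled table, and 2 with quantile normalization, with the mean over a gene's probes and with normexp without background outliers, which was chosen after seeing the data. Leaving out 1 array gave 0 to 2 called members in WT and in KO. It gave 0 members for the interaction and for both genotype comparisons, where every other alternative also gave 0. As no pairing by replicate number was visible, the numbers were used as a replicate block only here. This block left 0 called members for PB in WT (Nqo1 at 1.13 with a limma adjusted p of 0.0501) and 1 in KO.

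The 8 other NRF2 genes called for PB in WT became 2 with normexp, 2 with the unscaled table, 3 with no filter and 2 with the slide block. The 7 in KO became 2 with normexp and with the unscaled table, and 4 with no filter, without moderation and with only the arrays compared. The 4 called between genotypes under DEN became 0 with normexp, with the unscaled table and with no filter, 2 without moderation and 1 with only the arrays compared. The 4 under DEN + PB became 0 with normexp, 2 with the unscaled table, 1 with no filter, 1 without moderation and 2 with only the arrays compared. Leaving out 1 array gave 3 to 7 genes in WT (3 without WT DEN replicate 4), 4 to 7 in KO (4 without KO DEN replicate 4), 0 to 4 between genotypes under DEN (0 without WT DEN replicate 3) and 1 to 4 under DEN + PB (1 without KO DEN + PB replicate 2).

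Values near 0 changed sign as follows, in log2. With the unscaled series table, which set the median of all probes at -0.295 for PB in KO, at 0.372 for the interaction and at -0.286 for the genotype under DEN + PB, the PB value in KO became -0.14 for Keap1, -0.12 for Gsr and -0.25 for Txnrd1, and that of Keap1 in WT became 0.06. The interaction became 0.20 for Keap1 and 0.39 for Nqo1, the genotype value under DEN 0.01 for Srxn1, and that under DEN + PB -0.29 for Gsr and -0.20 for Ugdh. With normexp the genotype value under DEN became 0.17 for Nfe2l2 and 0.14 for Srxn1, and that under DEN + PB 0.03 for Nqo1, 0.02 for Gclc, 0.12 for Gclm and 0.03 for Txnrd1. With normexp without background outliers the Nqo1 interaction became 0.02 and the genotype value of Txnrd1 under DEN -0.01. With quantile normalization PB in WT became 0.02 for Keap1, PB in KO -0.03 for Txnrd1, the Nqo1 interaction 0.03, and the genotype value under DEN + PB -0.04 for Gsr and -0.01 for Ugdh. With the slide block the genotype value under DEN became 0.004 for Nfe2l2 and 0.04 for Srxn1, and the interaction 0.01 for Nqo1 and -0.07 for Ugdh.

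Leaving out 1 array moved values across 0 over these ranges. For PB in WT they were -0.15 to 0.10 for Keap1 and -0.04 to 0.30 for Gclm. For PB in KO they were -0.12 to 0.05 for Nfe2l2, -0.33 to 0.08 for Gclm and -0.03 to 0.16 for Txnrd1. For the interaction they were -0.18 to 0.13 for Nqo1 and -0.09 to 0.21 for Ugdh. For the genotype under DEN they were -0.15 to 0.003 for Nfe2l2, -0.12 to 0.03 for Srxn1 and -0.09 to 0.13 for Txnrd1. Under DEN + PB they were -0.27 to 0.03 for Nqo1, -0.29 to 0.14 for Gclm and -0.02 to 0.19 for Gsr.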
